A study of Homo sapiens with 41 samples.

Results

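The 9 genes described here are those of the aryl hydrocarbon receptor (AHR) pathway and of linked xenobiotic metabolism: AHR, its partner ARNT, its repressor AHRR, the targets TIPARP, CYP1A1, CYP1B1 and UGT1A6, the vitamin D hydroxylase CYP24A1 and the electron donor POR. They were chosen by name, and all 9 were found among the 57773 genes of the count table. The 41 libraries of total RNA came from 14 groups of a layered culture of the lung alveolus, 7 apical and 7 basolateral. The apical side faced the air and carried the adenocarcinoma line A549, a stand-in for alveolar epithelium, and differentiated THP1, a monocytic leukaemia line that stands in for macrophages. The basolateral side was submerged and carried an endothelial line, spelled EA.hy296 in the labels. In each compartment 1 group was untreated (control) and 6 groups were exposed for 24 h to gold (Au) nanoparticles shaped as spheres, rods or stars, and titled 1000 or 500, numbers for which the labels give no unit. Every group had 3 replicates except basolateral spheres 500, which had replicates 1 and 3.

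AHR is a ligand-activated transcription factor of the basic helix-loop-helix PAS family that waits in the cytoplasm with chaperones. Bound by dioxins, polycyclic hydrocarbons or tryptophan metabolites, it enters the nucleus, pairs with ARNT and binds the core letters GCGTG of the xenobiotic response element. Its classical targets oxidise and conjugate such compounds (CYP1A1, CYP1B1, UGT1A6), and AHRR and TIPARP are targets that feed back on the receptor. In the airway the pathway is known for its response to inhaled particles and smoke, and methylation of AHRR is widely used as a marker of smoking.

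In GENCODE 29 (GRCh38) the receptor gene AHR spans chr7:16916359-17346152 on the plus strand, ARNT chr1:150809705-150876768 on the minus strand and AHRR chr5:304176-438291 on the plus strand. TIPARP lies at chr3:156673235-156706770 (plus), CYP1A1 at chr15:74719542-74725610 (minus) and CYP1B1 at chr2:38066973-38109902 (minus). CYP24A1 lies at chr20:54153449-54173973 (minus), UGT1A6 at chr2:233691607-233773300 (plus) and POR at chr7:75899200-75986855 (plus). Counts cover whole genes, so that exons and isoforms are not told apart.

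The core letters are shown first because they tell which of these genes carry them near an annotated start. RefSeq windows of 250 bases before the annotated start (GRCh38.p14) were given for 6 of the 9 genes, namely AHR, AHRR, ARNT, TIPARP, CYP1A1 and UGT1A6. These genes had 10 windows, since AHRR, TIPARP and UGT1A6 have several starts. GCGTG or its reverse complement CACGC stood in 5 of the 10 windows, against 32.2% of 34943 windows of all genes. Of the TIPARP windows 1 of 3 held it, of the UGT1A6 windows 1 of 2, and of the AHRR windows both. The 30-base stretches below, read along the gene 5′ to 3′, have the core in capitals.
AHRR, chr5:321672-321701, plus strand: ggcgggcggctcGCGTGccggggtggggca
AHRR, second start, chr5:322360-322389, plus strand: ggcGCGTGacaggcaggggccaccctctga
AHRR, second start, chr5:322556-322585, plus strand: gcagaagggtggGCGTGtgcgcgcgttctc
TIPARP, chr3:156674370-156674399, plus strand: cgcgagaaaggaCACGCcccctcgcgggag
TIPARP, chr3:156674436-156674465, plus strand: cgaacgaacgcgCACGCgcgcgcagggggc
CYP1A1, chr15:74725568-74725597, minus strand: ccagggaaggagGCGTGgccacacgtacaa
UGT1A6, chr2:233691490-233691519, plus strand: gaacaggaactcGCGTGccagccaggtgtg
A match is a description of these letters and not a bound site, and the AHR and ARNT windows held none.

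The libraries held 2751300 to 11660700 counts. Levels are counts divided by the library's total and given as CPM, the count in 1000000, so that the floor of 3 counts came to 0.257 to 1.09 CPM. Endothelial markers summed to 1749 to 2912 CPM basolaterally and 40.4 to 106 apically, and epithelial markers to 11527 to 18765 CPM apically and 360.0 to 4092 basolaterally. The enzymes ALDH1A1 and AKR1B10 weighed most in the apical epithelial sum, with medians of 7978 and 3011 CPM. The keratin KRT8 stood at 2499 CPM there, CDH1 at 76.9 and EPCAM at 5.41. Basolaterally ALDH1A1 was again the largest, at a median of 628 CPM. The surfactant genes SFTPB and SFTPC did not exceed 0.763 CPM in any library, and NKX2-1, the lung lineage factor, was at 0 in all of them. KIT and 7 other mast cell markers summed to 168 to 1476 CPM apically, although the labels name 3 cell lines and none is a mast cell, and the word tetra-culture in the title implies a further cell type that the labels do not name. In these bulk samples fewer cells of a type and less RNA per cell cannot be told apart.

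**Figure D1:**
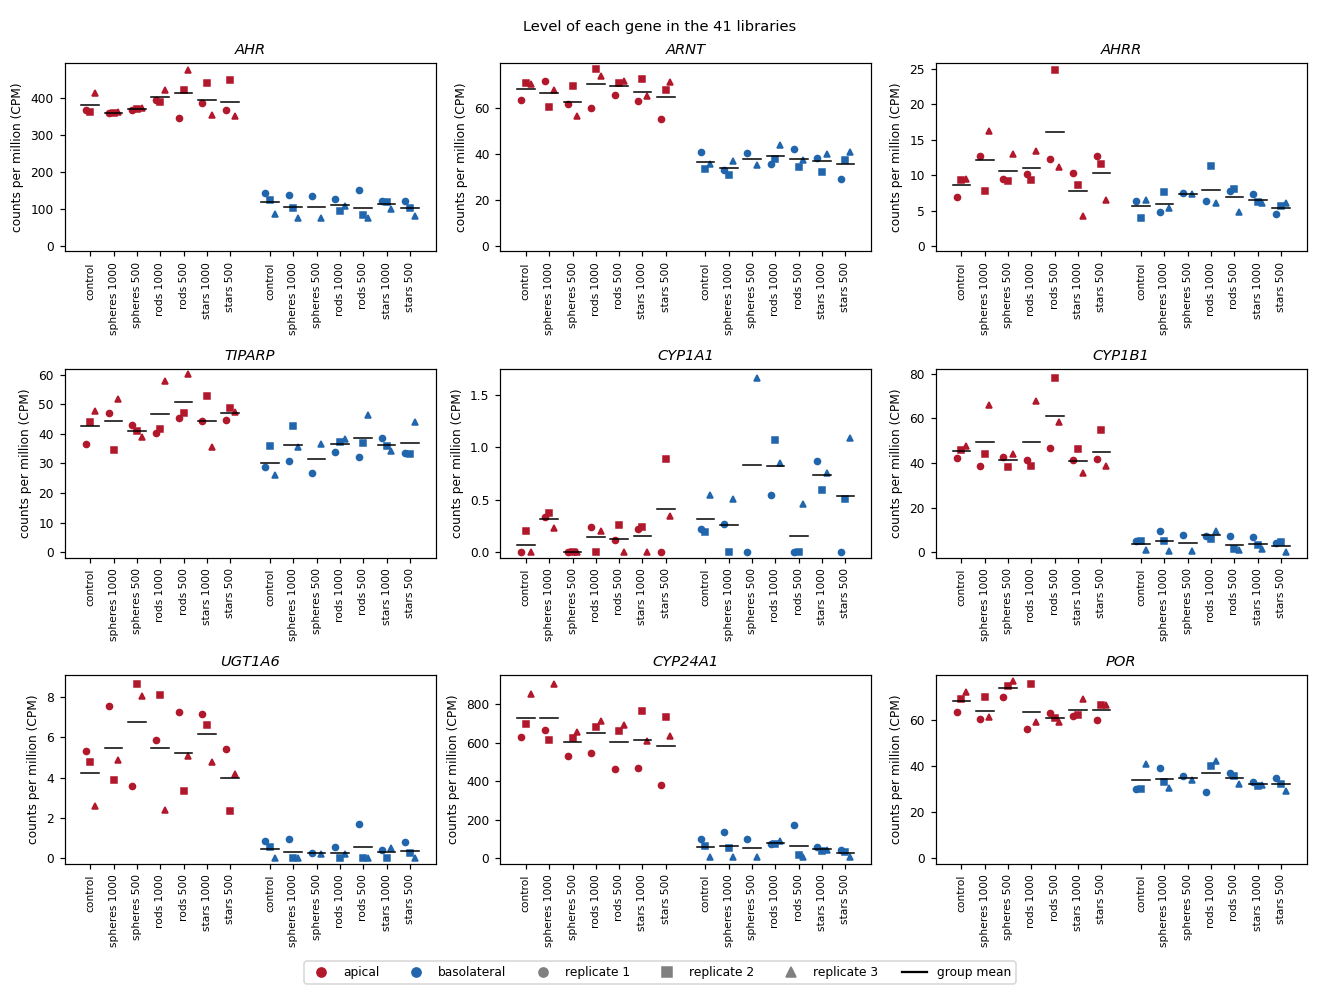
Level of each of the 9 genes in CPM (y axis) in every library, by group (x axis), with apical libraries in red, basolateral libraries in blue, a symbol for each replicate number and a line at the group mean. AHR stood at 348 to 476 CPM apically and 74.8 to 151 CPM basolaterally, CYP24A1 at 379 to 903 and 5.45 to 170 CPM, while CYP1A1 did not exceed 1.66 CPM in any library.

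The first comparison set the untreated compartments side by side and asked where the pathway is expressed. AHR, ARNT, CYP1B1, CYP24A1, UGT1A6 and POR were higher in the apical than in the basolateral control, and AHRR and TIPARP did not pass the test. CYP1B1 and CYP24A1 differed the most, about 11.6-fold and 11.7-fold, and ARNT and POR less than 2-fold. Genes were tested with edgeR's quasi-likelihood test and a gene was called where its p, adjusted over all genes by Benjamini-Hochberg, was under 0.05. Of 14198 genes tested, 54.1% were called and 26.7% were called as higher apically, so a call between compartments is the common case. Of the members 8 passed the filter on low counts and 6 were called, each of them higher apically. The libraries of the compartments did not overlap for any of the 8, as for 65.0% of all genes. Cell line and culture condition differ together between the compartments and cannot be told apart.

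AHR, the receptor, measured 370.0, 362 and 414 CPM in apical control replicates 1, 2 and 3 and 143, 125 and 86.4 CPM in the basolateral ones. All apical libraries lay above all basolateral libraries, by a log2 fold change of 1.56 ± 0.17 (estimate ± standard error, n = 3 and 3, adjusted p = 0.000323, edgeR). In GENCODE 29 a further gene model shares 29.4% of the AHR exon bases, and it is not used here. ARNT, the nuclear partner that AHR needs to bind DNA, measured 63.3, 70.6 and 70.3 CPM apically and 40.6, 33.5 and 35.8 CPM basolaterally (0.75 ± 0.12, adjusted p = 0.00191 in edgeR). Both genes of the DNA-binding pair were at their higher level in the apical libraries.

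AHRR, which competes with AHR for ARNT and represses its targets, measured 6.87, 9.31 and 9.45 CPM apically and 6.35, 3.95 and 6.44 CPM basolaterally. The lowest apical library lay just above the highest basolateral one, and the difference did not pass the test (0.48 ± 0.31, adjusted p = 0.230 in edgeR). TIPARP, a mono-ADP-ribosyltransferase that marks AHR for loss of activity, measured 36.4, 44.1 and 47.7 CPM against 28.9, 35.8 and 26.2 CPM (0.36 ± 0.17, adjusted p = 0.111). Its groups also only just parted. Averaged over all 7 groups of each compartment in 1 fit of 41 libraries, both were called (AHRR 0.66 ± 0.13, adjusted p = 3.51e-05, and TIPARP 0.30 ± 0.07, adjusted p = 0.000373, edgeR). That fit counts all libraries as independent. Yet deviations from the group mean correlated between same-numbered libraries of a compartment, with r from -0.252 to 0.805. The p-values of that fit may therefore be too small. In that fit all 8 tested members were higher apically, where 79.4% of 16352 genes were called and 43.2% were called as higher apically.

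CYP1B1, a P450 of extrahepatic tissue that oxidises polycyclic hydrocarbons and oestradiol, measured 42.1, 46.0 and 47.6 CPM in apical control replicates 1, 2 and 3 and 4.82, 4.91 and 0.873 CPM basolaterally. Its log2 fold change was 3.54 ± 0.50 (adjusted p = 0.00157, edgeR), and it was 3.03 without basolateral replicate 3, the library with the lowest level. UGT1A6, which joins glucuronic acid to small phenols, measured 5.34, 4.76 and 2.60 CPM apically, while the basolateral libraries held 8, 6 and 0 counts. The fitted log2 fold change of 2.94 ± 0.82 (adjusted p = 0.0181) was no longer called without apical replicate 1 (adjusted p = 0.0538), apical replicate 2 (0.0698) or basolateral replicate 2 (0.0608). UGT1A6 shares 28.5 to 36.5% of its exon bases with other genes of the UGT1A locus, so reads may be split between them.

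CYP24A1, the mitochondrial 24-hydroxylase that breaks down active vitamin D, was the most abundant member apically, also per length of transcript (183 CPM per kb of exon in the apical control, against 47.3 for AHR). It measured 629, 697 and 855 CPM in apical control replicates 1, 2 and 3 and 98.9, 64.0 and 9.39 CPM in the basolateral ones. Basolateral replicate 3 stood far below the other two. The log2 fold change was 3.55 ± 0.80 (adjusted p = 0.0135, edgeR), 2.98 without basolateral replicate 3 and 4.11 without basolateral replicate 1. The call was lost without apical replicate 3 (adjusted p = 0.0587), without the filter on low counts (0.0527) and in a fit with a replicate block (0.0547). POR, the flavoprotein that passes electrons from NADPH to microsomal P450 enzymes, measured 63.3, 69.2 and 72.1 CPM against 30.2, 30.2 and 40.9 CPM (0.87 ± 0.17, adjusted p = 0.00438).

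CYP1A1, the P450 most used as a readout of AHR activity, stood near the floor. Over the 3 apical control libraries it had 0, 2 and 0 counts and over the basolateral ones 2, 2 and 5, so no fold is given. Across all groups 19 of 21 apical and 8 of 20 basolateral libraries had 3 counts or fewer, and 9 and 5 of them had none. The pooled level was 0.183 CPM apically (32 counts) and 0.513 CPM basolaterally (82 counts). Its highest library, basolateral spheres 500 replicate 3, held 16 counts or 1.66 CPM, while the other library of that group held 0. No member test covers CYP1A1 within either compartment, because it did not pass the filter.

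**Figure D2:**
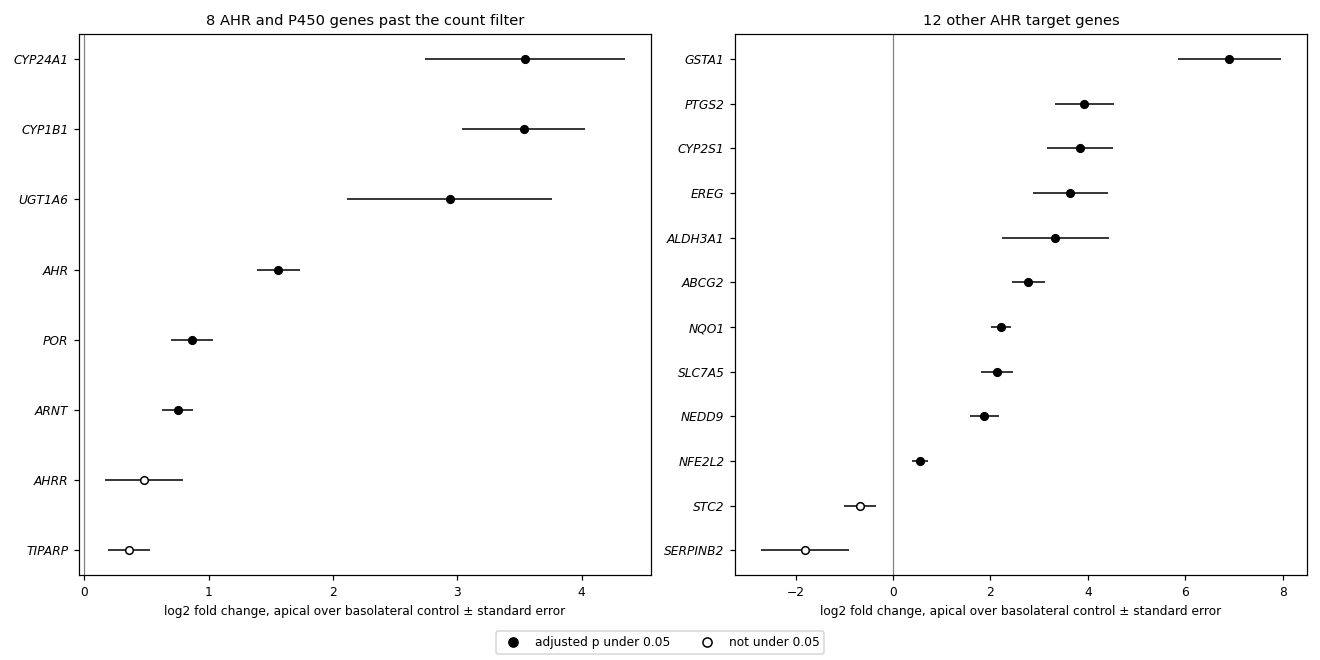
Log2 fold change of the apical over the basolateral control (x axis, bars are the standard error, n = 3 and 3) for the 8 tested members on the left and 12 other AHR target genes on the right, with filled points for an adjusted p under 0.05. CYP24A1 at 3.55 and CYP1B1 at 3.54 lie farthest to the right among the members and TIPARP at 0.36 nearest to 0. Of the 12 other targets 10 are filled and to the right of 0, beside 26.7% of all genes called as higher apically. The point of GSTA1 is fitted against basolateral libraries near 0 and is no measure of size.

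The wider pathway was compared in the same way. Of 14 other AHR target genes 12 were tested, and 10 were called, all of them higher apically. Over all genes 54.1% were called and 26.7% were called as higher apically. The list had a median log2 fold change of 2.5 against -0.01 over all genes. PTGS2, the inducible prostaglandin synthase, measured 2451 ± 337 CPM apically and 148 ± 88.8 basolaterally (3.93 ± 0.60), and NQO1, a quinone reductase, 1280.3 ± 169 and 249.9 ± 65.5 CPM (2.22 ± 0.20). ALDH3A1, an aldehyde dehydrogenase, measured 791 ± 99.3 and 72.4 ± 71.3 CPM. SERPINB2, a plasminogen activator inhibitor, and STC2, a secreted glycoprotein, had log2 values of -1.80 ± 0.90 and -0.68 ± 0.34 and did not pass. Several of these genes also have other regulators.

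The called share of the chaperones and co-activators of AHR, 7 of 12, lay near the 54.1% of all genes. Of them 5 were higher and 2 lower, with a list median of 0.32. NCOA7, a nuclear receptor co-activator, had a log2 fold change of 2.11 ± 0.21 and SRC, a tyrosine kinase held in the cytoplasmic AHR complex, 1.70 ± 0.14. PTGES3, the p23 co-chaperone, was lower apically by -0.44 ± 0.12. Of 13 other bHLH-PAS factors, which may share ARNT or its relatives, 6 were higher and 3 lower (median 0.60), again beside 54.1% of all genes called. ARNT2, the close relative of ARNT, was higher (3.12 ± 0.57), and ARNTL2, a clock factor, was lower (-2.15 ± 0.22).

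Of 16 other P450 genes tested, 10 were higher and 1 was lower apically, with a median of 2.47. Over all genes 54.1% were called and 26.7% were called as higher apically. The lists share genes: CYP2S1 is also among the other AHR targets, and CYP27A1, CYP27B1 and CYP2R1 are also among the vitamin D genes. CYP51A1, which acts in cholesterol synthesis, measured 465 ± 32.9 and 120.2 ± 34.6 CPM, and CYP4F11, a fatty acid hydroxylase, 82.3 ± 8.61 and 5.04 ± 4.66 CPM. CYP27C1, a retinoid desaturase, was the 1 lower gene, at 5.63 ± 1.26 against 53.1 ± 6.34 CPM (-3.41 ± 0.20). Of a mixed list of 12 electron carriers and acceptors of POR, 4 were higher and 4 lower (median 0.11). Those called include the cytochrome CYB5B (1.83 ± 0.17) and the haem oxygenase HMOX2 (-1.32 ± 0.12). The lower genes FDX1 (-0.80 ± 0.14) and FDXR (-0.75 ± 0.22) are carriers that are not partners of POR.

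The vitamin D genes, the PARP relatives of TIPARP and the electron carriers are likewise to be read against 54.1% of all genes called and 26.7% called as higher. Of 6 vitamin D genes tested, 3 were higher apically, among them VDR, the vitamin D receptor that drives CYP24A1 (21.2 ± 8.46 against 1.74 ± 0.78 CPM, 3.48 ± 0.44). Of 13 PARP relatives of TIPARP 5 were higher and 5 lower (median 0.31). From the UGT1A locus 2 rows were tested and both were higher, UGT1A7 (3.25 ± 0.78) and the row named UGT1A8, whose identifier ENSG00000241635 belongs to UGT1A1 in GENCODE 29 (3.82 ± 1.21).

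Basolateral CYP24A1 and CYP1B1 varied from library to library far more than the receptor did. CYP24A1 ranged 31.3-fold over the 20 basolateral libraries, CYP1B1 35.7-fold and AHR 2.02-fold, while ARNT, TIPARP and POR ranged 1.51-fold, 1.77-fold and 1.47-fold. The lowest CYP1B1 library held 2 counts, under the floor of 3, so the size of its range is uncertain. UGT1A6 was at 0 in 8 of these 20 libraries and has no such ratio. ALDH1A1, a retinaldehyde dehydrogenase that A549 expresses strongly, ranged 21.8-fold over the same libraries. For each 1000 CPM of ALDH1A1 the median CYP24A1 level was 72.7 CPM basolaterally (50.3 to 114) and 72.9 CPM apically (45.1 to 136). For CYP1B1 the medians were 6.27 CPM basolaterally (2.51 to 12) and 5.28 apically (3.77 to 12.5). The ranges of these ratios overlapped between the compartments for both genes. Macrophage markers were also higher apically, summing to 1049 to 1642 CPM against 77.8 to 416 CPM basolaterally. No ratio to them was taken, so the ALDH1A1 ratios do not single out an epithelial source.

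Most other members stood at different ratios. For each 1000 CPM of ALDH1A1 the median AHR level was 193 CPM basolaterally (73.0 to 804) against 46.4 apically (36.5 to 67.4). The medians of POR were 54.4 and 8.02 CPM, of ARNT 52.3 and 8.0, and of TIPARP 57.3 and 5.35. KRT18, an epithelial keratin and not a member, also differed, at 384 CPM basolaterally (214 to 1794) and 118 apically (77.2 to 135). Epithelial markers thus did not all keep the same ratio to ALDH1A1. AHR still stood lower in the basolateral libraries with little ALDH1A1. In the 5 replicate 3 libraries with 95.2 to 139 CPM of ALDH1A1, AHR measured 74.8 to 86.4 CPM, and in the 7 replicate 1 libraries, with 598 to 2073 CPM, it measured 122 to 151 CPM. The part that epithelial RNA has in these levels was not tested.

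**Figure D3:**
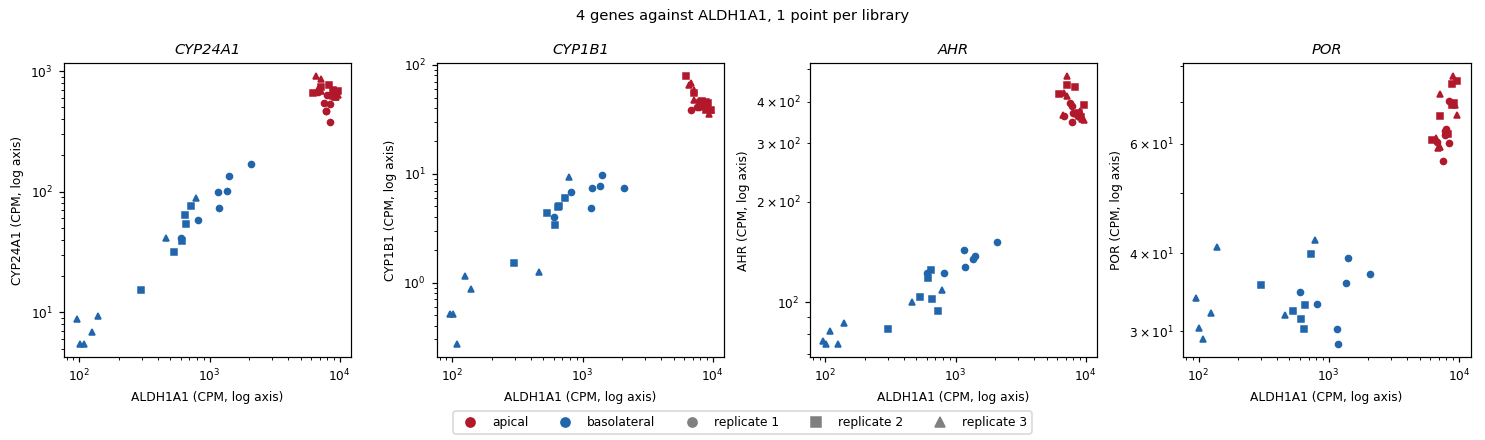
CYP24A1, CYP1B1, AHR and POR (y axes, CPM on log scales) against ALDH1A1 (x axes, CPM on a log scale), 1 point for each of 41 libraries, apical in red and basolateral in blue. CYP24A1 and CYP1B1 climb with ALDH1A1 from the basolateral to the apical libraries, AHR climbs less, and POR stays between 28.6 and 42.1 CPM basolaterally whatever the ALDH1A1 level.

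The second set of comparisons asked whether gold particles change these genes, with each of the 12 particle groups against the control of its compartment. No member was called in any of them. The members were tested 90 times in all, with 1 unadjusted p under 0.05 (1.11%, against 1.71% over all genes) and a lowest adjusted p of 0.998 in edgeR. In 1 fit of all 7 groups of a compartment the count was again 1 of 90. There it was 8 with a marker sum as a covariate (mast cell apically, epithelial basolaterally) and 4 with a replicate block, without a call. The share over all genes in those joint fits is not given here. Of all genes 0% were called in each of these comparisons, 130 to 458 genes had an unadjusted p under 0.05, and DESeq2 called at most 4 genes. Of the 4 comparisons whose replicate numbers pair the libraries, a fit with the replicate block called 27 genes in apical spheres 1000 and 5 in apical rods 1000, no member among them, and none in basolateral stars 1000 or stars 500. The same 3 controls serve 6 comparisons in each compartment. The standard error of a member's log2 fold change had a median of 0.18 and ranged from 0.09 to 1.34. Small changes and, for basolateral CYP24A1 and CYP1B1, large ones were thus not detectable in these fits, where group is the only term. Basolateral CYP24A1 averaged 96.9, 46.6 and 23.7 CPM in replicates 1, 2 and 3, a difference that such fits count as spread.

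AHR ranged from -0.07 ± 0.09 in apical spheres 500 to 0.15 ± 0.15 in apical rods 500, and from -0.21 ± 0.28 to -0.06 ± 0.16 over the 6 basolateral groups. ARNT lay between -0.15 and 0.07 over the 12 comparisons, and POR between -0.14 and 0.10. AHR lay below the control in all 6 basolateral comparisons, which share that control. TIPARP ranged from -0.09 ± 0.13 to 0.27 ± 0.17 apically and from 0.07 ± 0.21 to 0.35 ± 0.20 basolaterally, above 0 in 6 of 6 basolateral comparisons that share their control and without a call.

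AHRR had the lowest p of the members, in apical rods 500. It measured 12.3, 24.8 and 11.2 CPM in replicates 1, 2 and 3, against 6.87, 9.31 and 9.45 CPM in the control. The groups did not overlap, as for 7.08% of all genes in that comparison, and replicate 2 stood apart from the rest. The log2 fold change was 0.92 ± 0.34 (n = 3 and 3, adjusted p = 1.00 in edgeR), and without rods 500 replicate 2 it was 0.46 ± 0.26. AHRR shares 3.18% of its exon bases with PDCD6, a gene on the same strand, and how the counting split them is not given in the labels. Over the other apical groups AHRR ranged from -0.14 ± 0.34 in stars 1000 to 0.52 ± 0.30 in spheres 1000.

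CYP1B1 in the same comparison measured 46.6, 78.2 and 58.6 CPM against 42.1, 46.0 and 47.6 CPM (0.46 ± 0.20, adjusted p = 1.00 in edgeR). Rods 500 replicate 2 was again the highest of the 21 apical libraries, and the groups overlapped. POR lay lower in rods 500, at 62.9, 60.9 and 59.2 CPM against 63.3, 69.2 and 72.1 CPM, without overlap and without a call (-0.14 ± 0.11). Mast cell markers moved between these libraries: they summed to 1427, 204 and 168 CPM in rods 500 and to 1229, 718 and 193 CPM in the control. With that sum as a covariate over the 7 apical groups, AHRR stood at 0.83 ± 0.34 and CYP1B1 at 0.32 ± 0.15, neither of them called (adjusted p = 0.998 for each, edgeR).

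Apical CYP24A1 lay below the control in 5 of 6 particle groups, which share that control, from -0.31 ± 0.25 in stars 500 to 0.02 ± 0.18 in spheres 1000. In stars 500 it measured 379, 734 and 635 CPM, so that replicate 1 stood below and the other two overlapped the control libraries at 629, 697 and 855 CPM. Over all apical groups the replicate 1 libraries held 379 to 666 CPM of CYP24A1, against 613 to 764 in replicate 2 and 606 to 903 in replicate 3. Replicates 2 and 3 each mixed libraries of low and middle KIT. The 7 libraries with the least KIT held 662 to 903 CPM of CYP24A1, and the 7 in the middle 606 to 697.5 CPM. With the mast cell covariate the value for stars 500 was -0.32 ± 0.11 and that for rods 500 -0.38 ± 0.12, again without a call (adjusted p = 0.998 for each, edgeR). UGT1A6 ranged from -0.08 ± 0.43 to 0.67 ± 0.42 apically and was too low basolaterally to be tested.

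Basolateral CYP1B1 in rods 1000 measured 7.36, 5.97 and 9.37 CPM, against 4.82, 4.91 and 0.873 CPM in the control. The groups did not overlap, as for 8.76% of all genes, and the log2 fold change was 1.09 ± 0.53 (adjusted p = 0.998 in edgeR). Rods 1000 replicate 3 held 782 CPM of ALDH1A1, where control replicate 3 held 139 CPM, and with the epithelial marker sum as a covariate the value was 0.68 ± 0.42. Without control replicate 3 it was 0.64. Basolateral CYP24A1 ranged from -1.13 ± 1.00 in stars 500 to 0.46 ± 0.80 in rods 1000. AHRR in basolateral spheres 500 measured 7.50 and 7.27 CPM in its 2 libraries, above the control libraries at 6.35, 3.95 and 6.44 CPM, where 12.9% of all genes did not overlap.

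**Figure D4:**
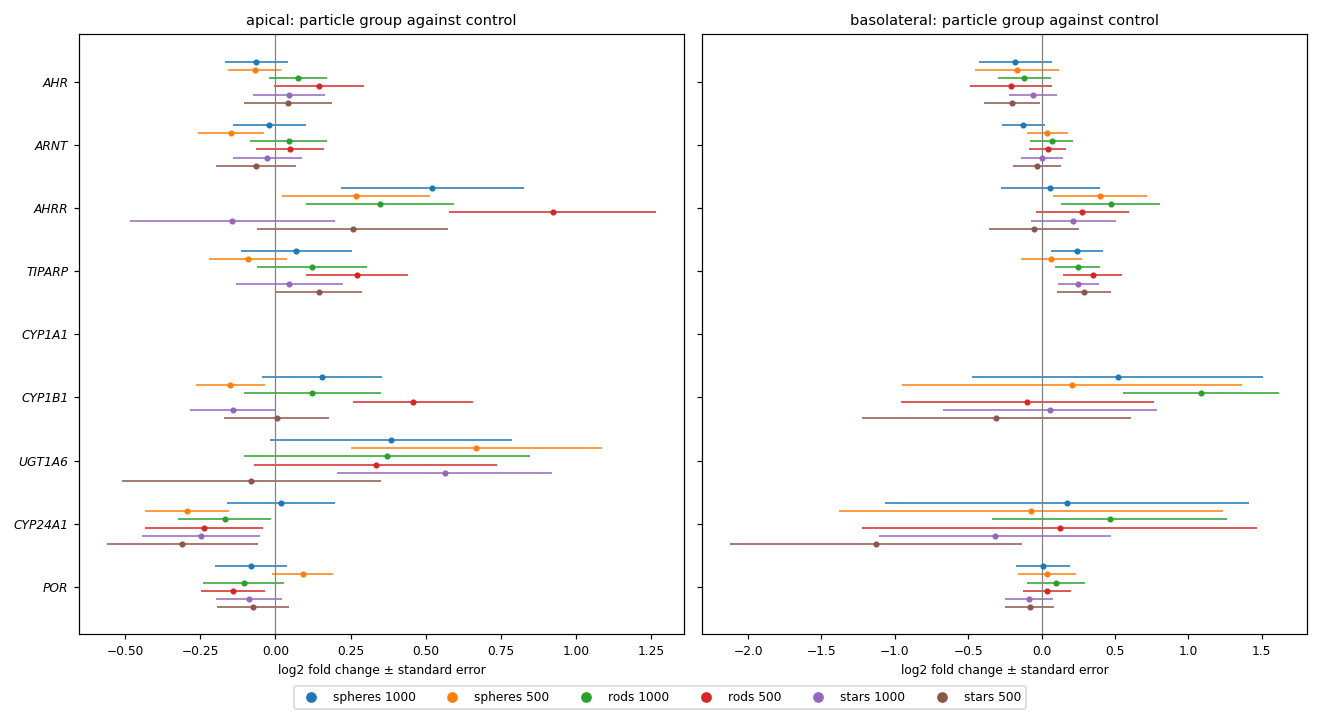
Log2 fold change of each particle group against the control of its compartment (x axes, bars are the standard error) for each of the genes, apical on the left and basolateral on the right, with the 6 particle groups in colour. No point passed an adjusted p of 0.05, the apical AHRR point of rods 500 at 0.92 lies farthest from 0 on the left, and the basolateral bars of CYP24A1 and CYP1B1 are the widest. CYP1A1 and basolateral UGT1A6 were not tested.

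The pathway lists gave no call against control in either compartment. Other AHR target genes had list medians from -0.07 to 0.08 in the apical and from -0.26 to 0.24 in the basolateral comparisons, with 3 of 67 and 4 of 66 tests at an unadjusted p under 0.05. The lowest were EREG, a growth factor of the EGF family, in apical spheres 1000 (0.34 ± 0.10, adjusted p = 1.00 in edgeR) and SERPINB2 in basolateral spheres 1000 (1.26 ± 0.35, adjusted p = 1.00). Among PARP relatives 7 of 156 tests had such a p, among them PARP9 in apical spheres 1000 (0.41 ± 0.13) and PARP2 in apical spheres 500 (0.46 ± 0.13). The AHR complex had 1 of 144, the bHLH-PAS factors 1 of 161 and the other P450 genes 2 of 169. The electron carriers, the vitamin D genes and the UGT1A locus had none. Over all genes the median log2 fold change was at most 0.02 in these comparisons.

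Particle groups were then compared with each other in 18 comparisons, between shapes of 1 number and between both numbers of 1 shape. No member was called, 4 of 135 tests had an unadjusted p under 0.05 (2.96%, against 1.77% over all genes), and 0% of all genes were called in each. In joint fits of 7 groups 2 of 135 had such a p, 6 with the marker covariate and 4 with the replicate block, without a call. Of the 5 comparisons with paired numbers, the replicate block called 76 genes in apical spheres 500 against rods 500 (all lower in spheres) and 42 in apical spheres 1000 against rods 1000, without a member in either. It called none in the rest of these 5. DESeq2 called at most 27 genes, in apical spheres 1000 against stars 1000. In apical spheres 500 against rods 500, CYP1B1 measured 42.5, 38.3 and 43.9 CPM in spheres against 46.6, 78.2 and 58.6 CPM in rods (-0.61 ± 0.20, adjusted p = 0.878 in edgeR). TIPARP measured 43.2, 41 and 38.9 CPM against 45.5, 47.0 and 60.2 CPM (-0.37 ± 0.15, adjusted p = 0.878). POR went the other way, at 70.2, 74.9 and 76.9 CPM in spheres against 62.9, 60.9 and 59.2 CPM in rods (0.23 ± 0.10). None of the 3 genes overlapped between the shapes, as for 11.2% of all genes in that comparison.

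These 2 groups also differ in mast cell markers. Replicates 2 and 3 of rods 500 summed to 204 and 168 CPM and those of spheres 500 to 711 and 720 CPM. In the 7 apical libraries with the least KIT (103 to 138 CPM), CYP1B1 measured 46.4 to 78.2 CPM and TIPARP 47.0 to 60.2 CPM, and in the other apical libraries 35.4 to 46.6 CPM and 34.5 to 47.5 CPM, so that the ranges met only at their ends. Of the former 7 libraries 2 were from rods 500 and none from spheres 500. Every other apical group gave 1 of them. The 7 libraries with the most KIT (760 to 973 CPM) were the replicate 1 libraries. KIT thus varied with the replicate within every group. With the mast cell sum as a covariate CYP1B1 stood at -0.34 ± 0.15 and TIPARP at -0.19 ± 0.14 between spheres 500 and rods 500 (adjusted p = 0.986 for each, edgeR).

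**Figure D5:**
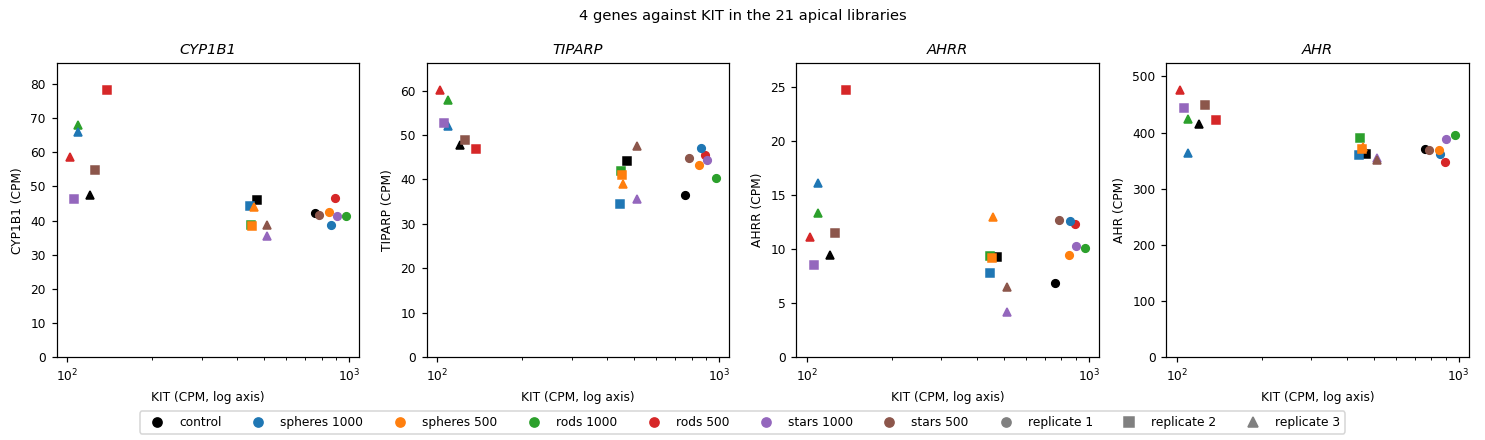
CYP1B1, TIPARP, AHRR and AHR in CPM (y axes) against KIT (x axes, CPM on a log scale) in the 21 apical libraries, coloured by group with a symbol for each replicate number. The 7 libraries at 103 to 138 CPM of KIT reach 78.2 CPM of CYP1B1 and 476 CPM of AHR, where the other libraries reach 46.6 and 396 CPM.

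In basolateral rods 1000 against stars 1000, CYP24A1 measured 73.7, 75.7 and 88.8 CPM in rods and 58.1, 38.7 and 41.2 CPM in stars. The groups did not overlap, as for 6.84% of all genes, and both were tighter than the other basolateral groups. The log2 fold change was 0.78 ± 0.17 (adjusted p = 1.00 in edgeR). CYP1B1 stood at 1.06 ± 0.48 in the same comparison. The epithelial markers moved with them, at 2272, 1633 and 1664 CPM in rods and 1717, 1423 and 972 CPM in stars, and with their sum as a covariate CYP24A1 stood at 0.16 ± 0.25 and CYP1B1 at 0.66 ± 0.42.

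Over the 30 comparisons within a compartment the groups did not overlap in 15 of 225 member tests (6.67%), against 7.46% of all tests. A test of any difference among the 7 groups called no member and 0% of all genes in either compartment. The difference between the compartments in their response was tested for each of the 6 particle groups, and no member was called and none of 48 tests had an unadjusted p under 0.05 (0% of 16352 genes called in each). CYP1A1 in rods 1000 and stars 1000 had 4, 7 and 8 and 4, 6 and 6 counts basolaterally, against 2, 2 and 5 in the control, all near the floor.

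Ordered by mean level, AHR ran apically from 362 ± 2.10 CPM in spheres 1000 to 415 ± 64.4 in rods 500 and basolaterally from 102 ± 19.9 in stars 500 to 118 ± 28.9 in the control. CYP1B1 ran apically from 41 ± 5.51 CPM in stars 1000 to 61.1 ± 16 in rods 500. CYP24A1 ran apically from 582 ± 183 CPM in stars 500 to 727 ± 155 in spheres 1000, next to the control at 727 ± 116. Libraries of neighbouring groups overlapped in these orders except between AHR in apical spheres 1000 and spheres 500, at 360 to 364 and 368 to 375 CPM.

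The genes whose pattern was most like that of a member were found by Pearson's r of log2 CPM over the 41 libraries, after the mean of each compartment was taken off, among 11523 genes. These points share library and depth, and no test is given. CYP24A1 was most like ABCC3 (r = 0.978), an organic anion exporter, and SPINT2 (0.977), a serine protease inhibitor of epithelia. Within a compartment r was 0.986 and 0.989 over the basolateral libraries and 0.774 and 0.658 over the apical ones. CYP1B1 was most like CD38 (0.948), an ADP-ribosyl cyclase, and ITGB2 (0.947), the leukocyte integrin chain, with r of 0.96 and 0.955 basolaterally and 0.711 and 0.791 apically. AHR was most like NHS (0.889) and MORC4 (0.884), with r of 0.917 and 0.914 basolaterally and 0.809 and 0.766 apically.

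TIPARP, POR and ARNT had weaker partners. TIPARP was most like ATP6V1B2 (0.743) and ITPRIP (0.735), and POR like EEF1D (0.678) and TP53I3 (0.649). ARNT was most like NFIL3 (0.653) and B4GALT1 (0.652). CYP1A1 and UGT1A6 were too low to be placed.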

How the data were processed

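The authors deposited whole-number read counts per gene without normalization, used here for 41 libraries. Per the labels' protocols, a QIAGEN kit gave the RNA and a stranded SMARTer kit for total RNA the libraries. The submitters' processing notes name GRCh38.p13. Aligner, counter, annotation and strand setting are not given in the labels, so reads of a gene and of a partner on the other strand may mix. Positions and exon lengths came from GENCODE 29. Of the low counts in a library 67.7 to 78.9% were even, so a count may overstate the number of independent reads. The design text calls the replicates biological, and p-values cover only the spread between them.

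Tests used edgeR 4.0.16 (R 4.3.3) with TMM scaling, filterByExpr, the robust quasi-likelihood test and group as the only term, on the 2 groups compared. All 41 libraries were used for differences between compartments, and the 7 groups of a compartment for tests of any difference. All 9 genes were reported for every comparison, with called genes of the pathway lists or those of lowest p. The members, lists and tests were chosen with earlier results of these data known. Replicate numbers counted as pairs where, with 3 pairs, all correlations of deviations from the group means between same-numbered libraries exceeded 0.1. This held for apical spheres 1000 and rods 1000 and basolateral stars 1000 and stars 500 against control, and for 5 comparisons between particle groups. Alternatives were RLE and upper quartile scaling, DESeq2 1.42.0, no filter, a replicate block, marker covariates, joint fits and each replicate left out. The tests were tried on simulated data. The genes most like AHRR are not reported here.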

Additional observations from a re-analysis of the deposited data

How the results depend on the processing

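Against control, no member was called under any of 167 combinations of comparison and alternative, nor under any of 42 for the difference between compartments or 16 for any difference among 7 groups. Between shapes and numbers the count rose from 0 to 1 in 2 of 144. CYP24A1 was called in basolateral rods 1000 against stars 1000 with no filter (0.78, adjusted p = 0.00238 in edgeR, range 0.00238 to 1.00 over its alternatives) and in basolateral spheres 500 against stars 500 with the replicate block (1.09, adjusted p = 0.00763), where only 2 pairs exist. Its standard error there was 0.20, against 1.21 without the block. The correlations of those 2 pairs were 0.573 and 0.684, and the block called 72 of 13116 genes there. Epithelial markers summed to 2832 and 421 CPM in replicates 1 and 3 of spheres 500. In replicates 1, 2 and 3 of stars 500 they summed to 1429, 1216 and 360 CPM. That comparison falls outside the rule for pairs only because the rule asks for 3 of them. In no comparison that met the rule did the block call a member.

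Between the control compartments 5 to 8 members were called under the 13 alternatives. With the replicate block the count was 5, since CYP24A1 was lost (3.90, adjusted p = 0.0547 in edgeR). Of the members AHR, ARNT, CYP1B1 and POR kept their calls under all 13. TIPARP was gained over all 7 groups, with upper quartile scaling (0.45, adjusted p = 0.0471) and without apical replicate 1 (0.50, adjusted p = 0.0423, edgeR). Scaling alone moved the median of all genes from -0.01 to 0.06 (RLE) or 0.08 (upper quartile) on the log2 scale, and DESeq2, which also tested more genes, gave 0.17. Of 1253 member values against control 31 moved by over 1 standard error, and 110 changed sign without a call. Leaving out each replicate was not run for comparisons between shapes and numbers. Depth limits CYP1A1 and basolateral UGT1A6, which lie near 3 counts. The causes were not tested.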
